A study of Mus musculus with 32 samples.

Results

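The genes described here encode 9 proteins that neutrophils store in their secondary and tertiary granules: Ltf, Camp, Ngp, Lcn2, Mmp8, Mmp9, Chi3l1, Olfm4 and Lyz2. The rule takes them by symbol alone, though the list was drawn up with earlier results of these data known, and all 9 were found in each of the 4 deposited tables, which hold 25281 distinct gene names between them. Chi3l1 is listed under its current symbol, Chil1, in the adult bone marrow table and in the table of the f-PRDM16 knockout. The series holds 32 mouse RNA-seq libraries in 10 groups, 12 of leukaemia cells and 20 of sorted haematopoietic stem cells (HSCs), and asks what the transcription factor PRDM16 and its forms do in both. f-PRDM16 is the full-length form and s-PRDM16 the short one.

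The leukaemia cells all carried the MLL-AF9 fusion and were taken ex vivo from moribund mice. The 4 groups of 3 libraries were Prdm16-knockout cells given s-PRDM16 (KO+s), knockout cells given f-PRDM16 (KO+f), knockout cells with an empty vector (KO+EV) and wild-type cells with an empty vector (WT+EV). HSCs were sorted as Lin-cKit+Sca1+CD48- cells from 3 sources, each with its own wild types: fetal liver of PRDM16-KO (total KO, 3) and wild-type animals (3), fetal liver carrying a 47bp knockout that leaves s-PRDM16 only (f-KO, 3) and its wild types (3), and adult bone marrow labelled PRDM16-KO (4) or wild type (4). The labels give no strain, age or Cre driver for the mice used here. Column names of the total KO and bone marrow tables carry the prefix VAV, which the labels do not explain. The design text calls replicates independent but does not say whether leukaemia replicates came from separate transductions or mice, so each p-value rests on the spread among these libraries, which may be technical.

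Neutrophils build their granules in order as they mature. Primary granules, with myeloperoxidase and the serine proteases, form in promyelocytes; secondary or specific granules, with lactoferrin and cathelicidin, in myelocytes and metamyelocytes; and tertiary or gelatinase granules later still. The late granule genes depend on the transcription factor C/EBP epsilon, and people who lack it have neutrophils without specific granules. Most of these proteins are not abundant in HSCs or myeloblasts, and the transcripts are used as a readout of how far granulocytic maturation has gone. In bulk libraries such as these, more cells of a granule-making type and more RNA per cell cannot be told apart.

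Ltf, Ngp and Camp lie on mouse chromosome 9 within the stretch chr9:109847377-111042766, and their upstream windows are shown with those of Chi3l1 and Olfm4, the members with the highest fold changes in KO+s against KO+EV. Each window is the 250 bases before the RefSeq transcription start on GRCm38.p6, read 5′ to 3′ on the gene's strand, which is not the mm9 build the counts were made on. Capitals mark matches to TTNNGNAA, the core shape of a C/EBP site, on either strand (TTNCNNAA on the other). The windows are chr9:111019042-111019291 (+) for Ltf, chr9:110419558-110419807 (+) for Ngp, chr9:109849457-109849706 (-) for Camp, chr1:134181906-134182155 (+) for Chi3l1 and chr14:80000052-80000301 (+) for Olfm4.
Ltf: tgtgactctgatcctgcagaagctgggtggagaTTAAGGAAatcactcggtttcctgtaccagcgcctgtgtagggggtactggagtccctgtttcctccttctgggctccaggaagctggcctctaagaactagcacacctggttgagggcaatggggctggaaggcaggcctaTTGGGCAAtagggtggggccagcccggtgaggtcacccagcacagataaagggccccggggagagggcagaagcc
Ngp: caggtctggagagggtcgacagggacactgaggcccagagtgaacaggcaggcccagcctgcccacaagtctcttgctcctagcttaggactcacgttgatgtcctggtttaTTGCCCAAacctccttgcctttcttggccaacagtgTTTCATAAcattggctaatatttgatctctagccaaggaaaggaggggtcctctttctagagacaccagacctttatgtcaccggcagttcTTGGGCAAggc
Camp: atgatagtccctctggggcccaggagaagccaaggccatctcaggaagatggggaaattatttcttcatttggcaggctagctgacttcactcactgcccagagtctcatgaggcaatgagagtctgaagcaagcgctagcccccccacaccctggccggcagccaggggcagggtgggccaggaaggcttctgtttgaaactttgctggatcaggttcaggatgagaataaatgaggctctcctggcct
Chi3l1: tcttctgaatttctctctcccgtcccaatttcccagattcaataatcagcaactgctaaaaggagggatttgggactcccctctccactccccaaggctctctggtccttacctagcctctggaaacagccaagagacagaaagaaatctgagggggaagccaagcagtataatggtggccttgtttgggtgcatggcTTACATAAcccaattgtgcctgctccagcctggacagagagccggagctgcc
Olfm4: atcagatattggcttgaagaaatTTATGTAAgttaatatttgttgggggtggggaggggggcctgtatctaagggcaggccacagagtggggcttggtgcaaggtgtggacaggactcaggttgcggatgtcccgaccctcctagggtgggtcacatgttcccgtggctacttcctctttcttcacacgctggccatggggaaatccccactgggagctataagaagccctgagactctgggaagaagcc
A match stood in 7 of the 8 members that have a window in the RefSeq set, against 36.8% of 32851 promoter windows of the same length. Ngp held 3 matches, the closest ending 4 bases before the start, Ltf 2, and Chi3l1 and Olfm4 1 each. Camp held none. The palindrome TTGCGCAA was in none of the 8 windows, against 0.164% of all windows, and GAGGAA, the core of sites bound by PU.1 and other ETS factors, in 4 of 8 (Ltf, Lcn2, Mmp8 and Olfm4), against 23.3%. GAGGAA and TTNNGNAA can share bases. These are letter matches, and no binding was measured.

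Library totals were 16.4 to 23.8 M counts in leukaemia, 22.5 to 29.3 M in bone marrow, 26.7 to 33.2 M in the total KO table and 35.5 to 44.95 M in the f-KO table. Values are given as CPM, a gene's counts scaled to the same total in every library, with SD after ± for CPM and the standard error (SE) after ± for log2 changes. Prdm16 itself had 0 to 0.0951 CPM in KO+EV and 0.429 to 1.04 in WT+EV, and was at 179 to 335 CPM after either add-back. In HSCs it was 10.8 to 24.6 CPM in total KO against 25.5 to 39.8 in WT, and 6.29 to 9.81 in f-KO against 13.2 to 34.7 in WT. It was 13.4 to 41.3 CPM in bone marrow libraries labelled KO against 10.45 to 53.4 in WT, so Prdm16 RNA does not bear out that label, and a count over the whole gene cannot show a deletion of part of it. Leukaemia libraries expressed all 7 leukaemia markers checked (Hoxa7, Hoxa9, Hoxa10, Meis1, Kit, Ptprc and Itgam), and every HSC library all 11 HSC markers (Hlf, Mecom, Procr and others). Every HSC library also expressed all 7 leukaemia markers, so their presence does not tell leukaemia cells from HSCs. Some libraries stood apart. KO+EV replicate 3 had a summed 54022 CPM of 5 early granulocyte genes (Mpo, Elane, Prtn3, Ctsg and Ms4a3), against 12785 and 12824 in the other KO+EV libraries. Replicate 3 of WT+EV held 8499 CPM of the 9 members, against 2216 and 2455, and in bone marrow KO replicate 4 held 1430 CPM, against 390 to 638.

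The members were found in all 10 groups, at levels that differed widely. Their summed CPM averaged 5630 ± 1336 in KO+s and 5944 ± 4392 in f-KO fetal HSCs, the highest, and 228 ± 149 in the wild types of the total KO table, the lowest. Ltf, an iron-binding protein of secondary granules, ran from 643 CPM on average in f-KO down to 8.95 in bone marrow WT, and every neighbouring pair of groups in that order overlapped. Olfm4, a glycoprotein made by a subset of neutrophils, was ordered differently, with KO+s first at 660 ± 125 CPM and above f-KO without overlap, then f-KO at 252 ± 231 CPM. It was close to absent in adult bone marrow HSCs, at 0 to 1.15 CPM in libraries labelled KO and 0 to 0.118 in WT. Mmp9, a gelatinase of tertiary granules, was highest in leukaemia, where KO+s, WT+EV and KO+f held the top places at 259, 124 and 59.2 CPM on average. Mmp8, the collagenase of secondary granules, was highest in the f-KO table instead, at 165 ± 41.7 CPM in f-KO and 108 ± 104 in its WT, and its highest mean in leukaemia was 7.53 ± 5.46 CPM in KO+s. Levels set across tables are descriptions, since the tables differ in preparation.

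In MLL-AF9 cells without Prdm16 part of the group was lower. With KO+EV set against WT+EV, 4 of the 9 members fell and 0 rose in edgeR's quasi-likelihood test with Benjamini-Hochberg adjustment over 12958 genes at a threshold of 0.05, against 1.2% of all genes tested called lower and 0.903% called higher. The 4 were Ngp, Lcn2, Mmp9 and Olfm4. The members' median log2 change was -2.16. Over all genes tested the median lay between -0.03 and 0.0022 in this and the 6 other comparisons within tables.

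Ngp, a granule protein of the cystatin family, had 437, 413 and 329 CPM in KO+EV, against 999, 1356 and 4353 in WT+EV (-2.50 ± 0.50, edgeR adjusted p = 0.0360). Lcn2, a lipocalin that binds bacterial iron carriers, had 83.1, 97.1 and 37.8 CPM in KO+EV, against 381, 125 and 477 in WT+EV (-2.16 ± 0.49, edgeR adjusted p = 0.04996). Mmp9 had 24.3, 20.5 and 8.87 CPM in KO+EV, against 187, 66.8 and 119 in WT+EV (-2.78 ± 0.47, edgeR adjusted p = 0.0237). For all 3 genes every KO+EV library lay below every WT+EV library. Olfm4 had 12.6, 13.7 and 18.3 CPM in KO+EV, against 69.8, 114 and 492.6 in WT+EV (-3.90 ± 0.70, edgeR adjusted p = 0.0297), the widest gap of the 9. Camp, the precursor of the antimicrobial peptide cathelicidin, had 93.4, 125 and 162 CPM in KO+EV, against 313, 595 and 2667 in WT+EV, and did not pass (-3.20 ± 0.84, edgeR adjusted p = 0.0771, and 0.00977 in DESeq2). For Ngp, Camp and Olfm4 KO+EV libraries were close to each other and WT+EV libraries wide apart. For Lcn2 and Mmp9 both groups were spread. Replicate 3 of WT+EV was highest for all these genes but Mmp9.

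Ltf (-1.59 ± 0.78, edgeR adjusted p = 0.317), Mmp8 (-1.20 ± 0.71, 0.404) and Chi3l1, a chitinase-like protein (-1.03 ± 0.38, 0.175), did not pass. Lyz2, the lysozyme of neutrophils and macrophages, was at 208, 222 and 250 CPM in KO+EV, against 254, 154 and 274 in WT+EV (0.03 ± 0.32, edgeR adjusted p = 0.975). In all, 6 of 9 members had groups that did not overlap, lower in KO+EV, against 12.4% of genes tested. The calls were not stable. Without KO+EV replicate 2 none passed (Ngp and Lcn2 0.125, Mmp9 0.0899, Olfm4 0.109), and without KO+EV replicate 1 Mmp9 alone did (Ngp 0.0722, Lcn2 0.0982, Olfm4 0.0610). Without WT+EV replicate 3 Olfm4 alone passed (Ngp 0.0508, Lcn2 0.146, Mmp9 0.0559), without KO+EV replicate 3 Ngp (0.0588) and Lcn2 (0.0849) were lost, and without WT+EV replicate 1 Lcn2 (0.122) and Mmp9 (0.0528). A fit to these 2 groups alone called 0 members and 1 gene, and Lcn2 was also lost with DESeq2-style size factors (edgeR adjusted p = 0.0515).

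Of the other late granule and neutrophil genes 11 of 36 tested fell and 0 rose, led by Itgb2l, an integrin subunit (-2.66 ± 0.39, edgeR adjusted p = 0.0121), Adam8, a metalloprotease (-2.59 ± 0.41, 0.0196), and Stfa2l1, a stefin (-3.25 ± 0.53, 0.0196), with a list median of -1.20. Of 8 primary granule genes, 1 rose, the protease gene Ctsg (1.03 ± 0.22, edgeR adjusted p = 0.0397), and 0 fell, with a median of 0.92. None of 13 transcription factors tested passed, and Cebpe, which encodes C/EBP epsilon, had -1.24 ± 0.34 (edgeR adjusted p = 0.0890). Markers of mature neutrophils that are not members (8 of 9 in the table, among them Cxcr2, Csf3r and S100a8, and all 9 also in the late granule list) summed to 512 to 640 CPM in KO+EV and 1004 to 3215 in WT+EV, with none at 0. Of 8 tested 2 fell and 0 rose, with a median log2 change of -1.43 and 2 changes positive. Early granulocyte genes summed to 12785 to 54022 CPM in KO+EV, above the 7204 to 7675 of WT+EV. What these shifts contribute to the members' values was not tested.

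**Figure D1:**
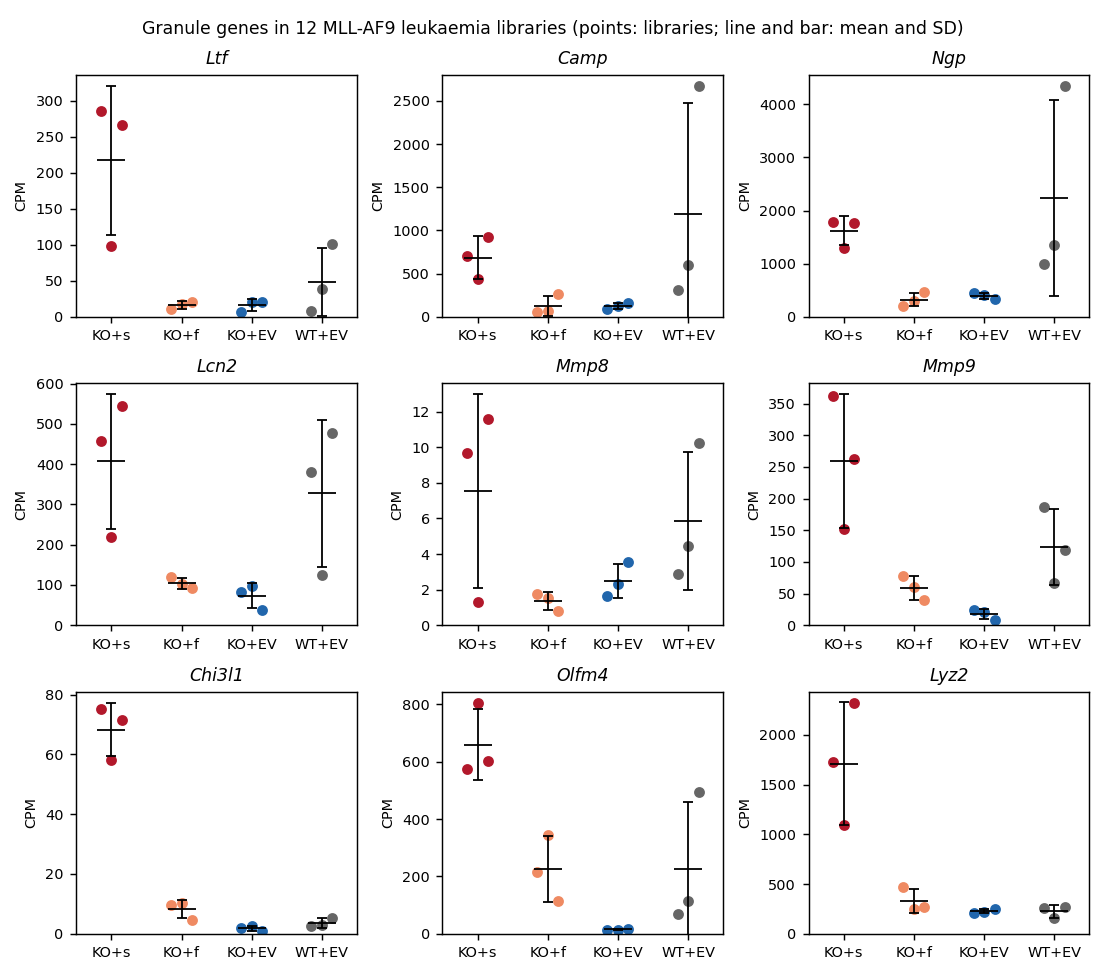
CPM of each of the 9 genes (one panel each) in the 12 leukaemia libraries, with groups KO+s, KO+f, KO+EV and WT+EV from left to right, points for libraries and bars for mean ± SD. Chi3l1 sits between 58.2 and 75.0 CPM in KO+s and at most 10.3 in KO+f, while Camp in WT+EV runs up to 2667 CPM in 1 library.

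With f-PRDM16 added back 3 of the 9 members were higher than in KO+EV and 0 lower, where 6.88% of all genes were called higher and 4.39% lower. Olfm4 had 216, 344 and 114 CPM in KO+f, against 12.6, 13.7 and 18.3 in KO+EV (3.87 ± 0.70, edgeR adjusted p = 0.00815). Chi3l1 had 9.46, 10.3 and 4.76 CPM in KO+f, against 1.79, 2.47 and 1.08 in KO+EV (2.172 ± 0.37, edgeR adjusted p = 0.00615). Mmp9 had 77.0, 61.0 and 39.6 CPM in KO+f, against 24.3, 20.5 and 8.87 in KO+EV (1.72 ± 0.46, edgeR adjusted p = 0.0361). These were also the 3 members whose groups did not overlap, against 18.2% of genes that lay higher without overlap.

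The other 6 had overlapping groups. Ltf averaged 16.1 ± 4.96 CPM in KO+f and 15.9 ± 8.33 in KO+EV (-0.03 ± 0.77, edgeR adjusted p = 0.985), and Camp 126 ± 117 in KO+f and 127 ± 34.5 in KO+EV (-0.06 ± 0.77, 0.969). Ngp had 206, 305 and 456 CPM in KO+f, against 437, 413 and 329 in KO+EV (-0.31 ± 0.47, edgeR adjusted p = 0.697). Lcn2 (0.51 ± 0.47, edgeR adjusted p = 0.510), Lyz2 (0.51 ± 0.32, 0.316) and Mmp8 (-0.92 ± 0.73, 0.432) did not pass either. The median change of the 9 was 0.51. Olfm4 and Chi3l1 passed in all 6 fits that left out 1 library, while Mmp9 was lost without KO+EV replicate 2 (0.0889), KO+EV replicate 3 (0.0979), KO+f replicate 1 (0.104) or KO+f replicate 2 (0.0898), with no low-count filter (0.0895) and in a fit to these 2 groups alone (0.0635). The sign of Camp and Ltf turned positive in some of these fits (to 0.33 and 0.28), as it did for Ltf with replicate number as a block.

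Among 36 other late granule and neutrophil genes 7 rose and 1 fell with f-PRDM16, led by Il1r2, a decoy receptor for interleukin 1 (2.37 ± 0.45, edgeR adjusted p = 0.00862), Anxa1, the anti-inflammatory protein annexin A1 (1.39 ± 0.31, 0.0183), and Ifitm6 (2.27 ± 0.54, 0.0239). The list median was 0.32. Of the primary granule genes 1 of 8 rose, Prss57 (1.15 ± 0.34, edgeR adjusted p = 0.0492). Rarg, a retinoic acid receptor (1.94 ± 0.24, edgeR adjusted p = 0.00150), and the Krüppel-like factor Klf5 (1.75 ± 0.49, 0.0427) rose, and Gfi1 (-0.63 ± 0.16, 0.0309) and Cebpa (-0.77 ± 0.20, 0.0329), both regulators of early granulocyte development, fell, so that 2 of 13 transcription factors were higher and 2 lower. Cebpe did not pass (0.35 ± 0.34, edgeR adjusted p = 0.528). Mature neutrophil markers summed to 822 to 1084 CPM in KO+f and 512 to 640 in KO+EV. Of 8 tested 1 rose, Il1r2, and 0 fell, with only 4 log2 changes positive and a median of 0.08. Early granulocyte genes summed to 11484 to 17205 CPM in KO+f and 12785 to 54022 in KO+EV, with 0 of 5 called and all 5 log2 changes negative. Of 6 HSC markers tested 2 rose, Hlf (4.07 ± 0.58, edgeR adjusted p = 0.00278) and Procr (1.97 ± 0.56, 0.0423), and of 8 monocyte and macrophage markers 2 rose, Cx3cr1 (3.56 ± 0.51, 0.00307) and Csf1r (1.67 ± 0.36, 0.0174), with 0 lower in both lists. Their part in the members' values was not tested.

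With s-PRDM16 nearly the whole group rose. In KO+s against KO+EV 8 of 9 members were higher and 0 lower in the same edgeR test, where 15.9% of all genes were called higher and 16.6% lower, and the same 8 had groups that did not overlap, against 20.9% of genes lying higher without overlap. Their median change over all 9 was 3.00. Mmp8 was the exception.

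Olfm4 had 573, 804 and 602 CPM in KO+s, against 12.6, 13.7 and 18.3 in KO+EV (5.55 ± 0.75, edgeR adjusted p = 0.000654). Chi3l1 had 75.0, 58.2 and 71.7 CPM in KO+s, against 1.79, 2.47 and 1.08 in KO+EV (5.35 ± 0.41, edgeR adjusted p = 3.3e-05). Mmp9 had 363, 152 and 263 CPM in KO+s, against 24.3, 20.5 and 8.87 in KO+EV (3.97 ± 0.49, edgeR adjusted p = 0.000427). These 3, also called with f-PRDM16, had the highest fold changes here, and replicate 2 of KO+s was the lowest of its group for 2 of them and the highest for Olfm4. Ltf had 286, 98.1 and 267 CPM in KO+s, against 6.28, 20.6 and 20.8 in KO+EV (3.84 ± 0.84, edgeR adjusted p = 0.00616). Lyz2 had 1722, 1089 and 2320 CPM in KO+s, against 208, 222 and 250 in KO+EV (3.00 ± 0.34, edgeR adjusted p = 0.000222), so a gene that did not pass on loss of Prdm16 or with f-PRDM16 was among those called with s-PRDM16.

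Lcn2 had 458, 220 and 543 CPM in KO+s, against 83.1, 97.1 and 37.8 in KO+EV (2.60 ± 0.50, edgeR adjusted p = 0.00330). Ngp had 1785, 1303 and 1761 CPM in KO+s, against 437, 413 and 329 in KO+EV (2.13 ± 0.49, edgeR adjusted p = 0.00784). Camp had 699, 432 and 925 CPM in KO+s, against 93.4, 125 and 162 in KO+EV (2.51 ± 0.81, edgeR adjusted p = 0.0364). Camp is the least secure of the 8, passing only without KO+s replicate 2 among the fits that left out 1 library. Its adjusted p was 0.101 without KO+EV replicate 1 or 2, 0.0594 without KO+EV replicate 3, 0.0759 without KO+s replicate 1 and 0.0917 without KO+s replicate 3. Mmp8 had 9.67, 1.32 and 11.6 CPM in KO+s, against 1.64, 2.33 and 3.53 in KO+EV, and did not pass (1.67 ± 0.71, edgeR adjusted p = 0.0931), though it did without KO+s replicate 2 (0.0145) and in DESeq2 (0.0388). The other 7 passed in all 6 such fits.

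Of the other late granule and neutrophil genes 20 of 36 rose, 3 fell and 13 did not pass, with a list median of 1.33. The lowest p-values were those of S100a9, a subunit of calprotectin (4.81 ± 0.49, edgeR adjusted p = 0.00014), Itgb2l (3.41 ± 0.40, 0.00025) and Csf3r, the receptor for granulocyte colony-stimulating factor (1.26 ± 0.16, 0.00037). Primary granule genes were split, with 2 of 8 higher, Prss57 (1.60 ± 0.34, edgeR adjusted p = 0.00516) and Ctsc (1.05 ± 0.34, 0.0357), and 1 lower, Ctsg (-0.62 ± 0.22, 0.0472). Of 13 transcription factors 4 rose and 0 fell, among them Rarg (2.52 ± 0.25, edgeR adjusted p = 0.00010), Klf5 (2.29 ± 0.50, 0.00535), Klf4 (3.25 ± 0.72, 0.00668) and Cebpe (1.15 ± 0.34, 0.0250). Cebpe averaged 127 ± 21.0 CPM in KO+s and 61.2 ± 26.4 in KO+EV. Mature neutrophil markers summed to 4221 to 11527 CPM in KO+s and 512 to 640 in KO+EV, and early granulocyte genes to 13377 to 19031 in KO+s and 12785 to 54022 in KO+EV. Of 8 mature neutrophil markers tested 4 rose and 1 fell, with 7 log2 changes positive and a median of 1.30. Csf1r, Ccr2 and the other monocyte and macrophage markers (9 of 10 in the table) summed to 947, 1478 and 986 CPM in KO+s, against 1537, 1350 and 3358 in KO+EV. Of 8 tested 2 rose, Cx3cr1 (4.84 ± 0.53, edgeR adjusted p = 0.000193) and Csf1r (1.83 ± 0.37, 0.00378), and 2 fell, Vcam1 first (-2.51 ± 0.55, 0.00598). Of 6 HSC markers tested 2 rose, Hlf (2.70 ± 0.56, edgeR adjusted p = 0.00406) and Procr (2.21 ± 0.55, 0.0105), and 0 fell. Their part in the members' values was not tested.

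The 2 add-back groups were also compared directly, and both KO+EV comparisons above share their controls. In KO+s against KO+f 6 of 9 members were higher and 0 lower, where 2.05% of all genes were called higher and 1.76% lower. Prdm16 RNA was at 179 to 295 CPM in KO+s and 242 to 335 CPM in KO+f, ranges that overlap. CPM does not correct for transcript length, so the amounts of the short and full-length forms were not compared. Chi3l1 had 75.0, 58.2 and 71.7 CPM in KO+s, against 9.46, 10.3 and 4.76 in KO+f (3.18 ± 0.36, edgeR adjusted p = 0.00489). Lyz2 had 1722, 1089 and 2320 CPM in KO+s, against 465, 248 and 274 in KO+f (2.49 ± 0.33, edgeR adjusted p = 0.00592). Ltf had 286, 98.1 and 267 CPM in KO+s, against 10.6, 17.5 and 20.3 in KO+f (3.87 ± 0.84, edgeR adjusted p = 0.0343). Each of these genes was higher in every KO+s library than in any KO+f library.

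Ngp (2.45 ± 0.50, edgeR adjusted p = 0.0274), Mmp9 (2.25 ± 0.46, 0.0274) and Lcn2 (2.09 ± 0.49, 0.0417) also rose. Camp (2.57 ± 0.82, edgeR adjusted p = 0.0963), Mmp8 (2.59 ± 0.74, 0.0713) and Olfm4 (1.67 ± 0.63, 0.149) did not pass, and a p that misses the threshold does not show that the forms act alike on them. In a fit to these 2 groups alone Olfm4 passed (1.67 ± 0.35, edgeR adjusted p = 0.0347). Olfm4 had 573, 804 and 602 CPM in KO+s, against 216, 344 and 114 in KO+f. Without overlap 8 of 9 members lay higher in KO+s, all but Mmp8, against 9.61% of genes. Chi3l1 and Lyz2 passed in all 6 fits that left out 1 library. The other 4 were lost in most: the count of members called was 3 without KO+f replicate 1, 2 without KO+f replicate 2, KO+f replicate 3, KO+s replicate 1 or KO+s replicate 3, and 7 without KO+s replicate 2. Adjusted p-values after such losses ran up to 0.115 for Ltf and Mmp9, 0.107 for Ngp and 0.149 for Lcn2. With no filter on low counts 2 members passed among 393 genes, and DESeq2 called 8 among 1381.

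Of the other late granule genes 6 of 36 rose and 1 fell in KO+s against KO+f, with Csf3r (1.38 ± 0.16, edgeR adjusted p = 0.00489), S100a9 (3.46 ± 0.46, 0.00592) and Itgb2l (2.57 ± 0.38, 0.00832) first and a list median of 1.03. No primary granule gene passed in edgeR, where 0 of 8 were called. The member median was 2.49. Cebpd, a C/EBP family member (0.96 ± 0.22, edgeR adjusted p = 0.0352), was the 1 transcription factor of 13 called, and Cebpe had 0.80 ± 0.34 (0.193).

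**Figure D2:**
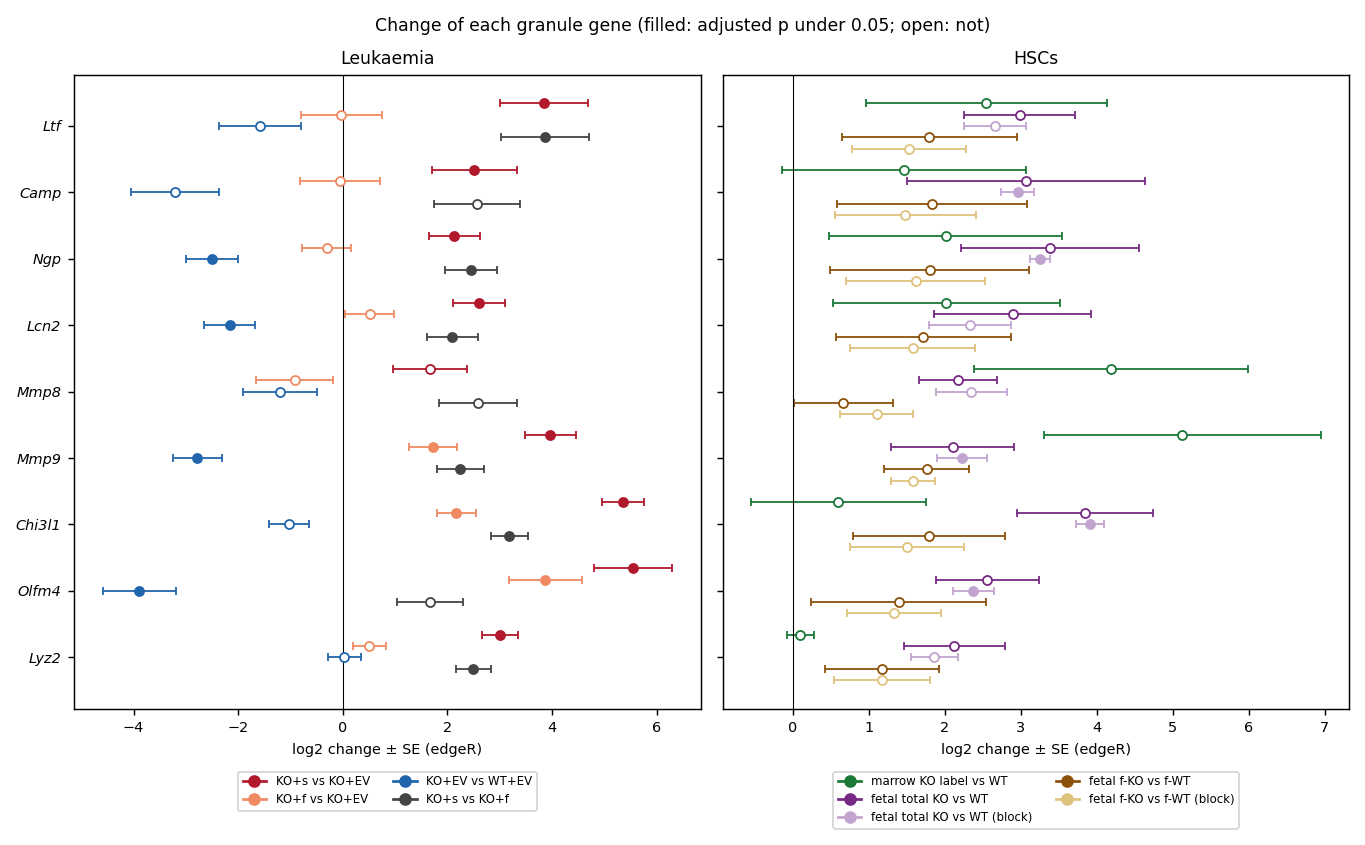
Log2 change ± SE of the 9 genes in each comparison from edgeR, with filled points for adjusted p under 0.05 and the fetal comparisons given both without and with the replicate number as block. In KO+s against KO+EV 8 of 9 points are filled, and in the total KO 5 of 9 are filled with the block.

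In fetal liver HSCs of the total KO all 9 members lay higher than in their wild types. The log2 changes ran from 2.10 to 3.84 with a median of 2.89. In the fit without pairing none passed (0 of 9, edgeR adjusted p from 0.958 to 1.00), as for all genes (0% called), while 8 of 9 had an unadjusted p under 0.05, against 739 of 15590 genes. DESeq2 called 2 members, Chi3l1 and Mmp8, among 70 genes. Libraries with the same replicate number deviated together in both fetal tables, though numbers 1 and 2 were not separated in the total KO table. With that number as a block 5 members rose, where 0.526% of all genes were called higher and 0.603% lower.

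Ngp had 117, 244 and 1166 CPM in total KO, against 16.5, 23.2 and 114 in WT (3.38 ± 1.17, edgeR adjusted p = 1.00; blocked 3.25 ± 0.13, 0.000532). Chi3l1 had 7.57, 19.3 and 40.7 CPM in total KO, against 0.374, 1.41 and 3.07 in WT (3.84 ± 0.89, edgeR adjusted p = 0.964; blocked 3.91 ± 0.19, 9.5e-05). Camp had 23.9, 51.8 and 512 CPM in total KO, against 4.98, 4.99 and 64.0 in WT (3.07 ± 1.56, edgeR adjusted p = 1.00; blocked 2.96 ± 0.22, 0.0162). Replicate 3 was the highest library of both groups for each of these genes, and it was KO replicate 1 that came closest to the wild types. Olfm4 had 21.6, 46.1 and 113 CPM in total KO, against 5.32, 12.3 and 14.3 in WT (2.56 ± 0.68, edgeR adjusted p = 0.964; blocked 2.37 ± 0.27, 0.0424). Mmp9 had 1.53, 5.76 and 6.86 CPM in total KO, against 0.225, 1.92 and 1.23 in WT (2.10 ± 0.81, edgeR adjusted p = 1.00; blocked 2.22 ± 0.33, 0.0278). Mmp9 had the lowest counts of the 9 there, down to 6 reads in WT replicate 1.

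The other 4 did not pass with the block either, at 2.65 ± 0.41 for Ltf (edgeR adjusted p = 0.149), 2.33 ± 0.54 for Lcn2 (0.267), 2.35 ± 0.47 for Mmp8 (0.174) and 1.86 ± 0.31 for Lyz2 (0.162). Lyz2 had 150, 269 and 771 CPM in total KO, against 58.3, 88.1 and 138 in WT. In this table Lyz1, the near-identical gene next to Lyz2 on chromosome 10, held 16.8 to 22.5% as many counts as Lyz2, against at most 1.59% in the other tables, so how reads were shared between the copies is uncertain. Groups did not overlap, higher in total KO, for 6 of 9 members, against 3.67% of genes. Within each replicate number the total KO library was the higher for all 9 members. The KO over WT ratio ran from 2.57 to 20.2 in pair 1 (median 4.80), 2.36 to 13.7 in pair 2 (3.83) and 5.56 to 13.3 in pair 3 (8.59). Leaving out both libraries of a number changed which passed: 3 members without pair 1 (Camp, Ngp and Chi3l1, with Mmp9 at 0.0673 and Olfm4 at 0.185), 3 without pair 2 (Ngp, Chi3l1 and Mmp8, with Camp at 0.0898, Mmp9 at 0.0866 and Olfm4 at 0.141) and 8 without pair 3 (all but Mmp8 at 0.347). Ngp and Chi3l1 passed in each. The fit without pair 3 rests on the libraries numbered 1 and 2, whose pairing was not separated in this table.

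Other genes of granulocytes moved with them, and so did genes of monocytes and macrophages. With the block 13 of 35 other late granule genes rose and 0 fell, led by Fcnb, a ficolin (2.95 ± 0.09, edgeR adjusted p = 6.7e-06), S100a9 (3.02 ± 0.09, 6.7e-06) and the stefin Stfa2 (2.84 ± 0.11, 3.7e-05). Of the primary granule genes 2 of 7 rose and 0 fell, Mpo (2.72 ± 0.07, edgeR adjusted p = 3.8e-06) and Ctsg (3.14 ± 0.26, 0.0207). Cebpe was the 1 of 13 transcription factors called (3.08 ± 0.19, edgeR adjusted p = 0.000342), at 24.1 ± 33.3 CPM in total KO and 3.34 ± 4.93 in WT. Without the block 0 genes of these lists passed. Mature neutrophil markers (8 of 9 in the table, none at 0) summed to 352 to 4013 CPM in total KO and 135 to 514 in WT. With the block 4 of 8 rose and 0 fell, with a median log2 change of 1.24. Monocyte and macrophage markers (9 of 10) summed to 98.3 to 375 CPM in total KO, with none at 0, and 30.0 to 52.5 in WT, with up to 2 at 0. Of 8 tested 3 rose with the block (Ly6c2, Csf1r and F13a1) and 0 fell, with a median of 2.28 and all 8 changes positive. In the same fit 1 of 3 T and NK cell markers rose, Nkg7, and 1 of 5 erythroid markers fell, Hbb-b1. HSC markers summed to 1239 to 1416 CPM in total KO, below the 1455 to 1820 of WT, and 3 of 11 fell with the block (Hlf, Mecom and Ly6a). Whether the sorted cells held granulocyte precursors or other maturing cells was not tested.

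**Figure D3:**
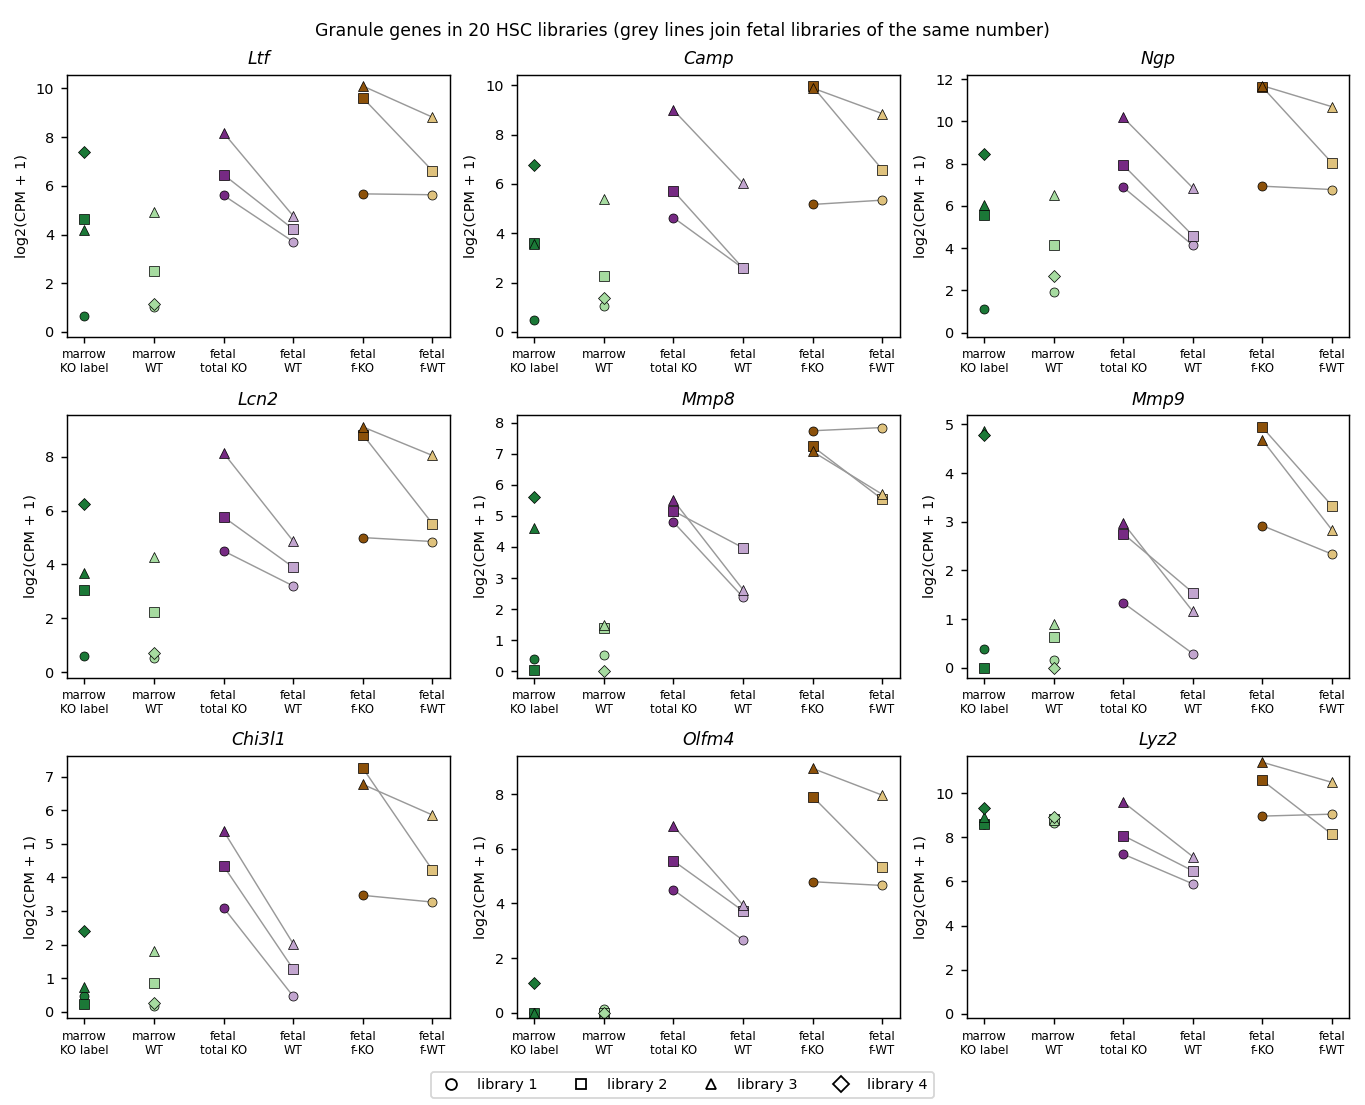
Log2(CPM + 1) of each of the 9 genes in the 20 HSC libraries, KO left of WT in each table, with lines joining fetal libraries of the same replicate number. In the total KO table every line falls towards WT, while pair 1 of the f-KO table lies nearly flat.

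Fetal HSCs that kept only s-PRDM16 had higher mean CPM of all 9 members than their wild types, but no member passed. The log2 changes were 0.66 to 1.83 (median 1.76), with 0 of 9 called without the block (edgeR adjusted p = 0.999 for each) and 0 of 9 with it (0.212 to 0.566), as for all genes (0% called in either fit). At an unadjusted p under 0.05 it was 1 member, Mmp9, and 357 of 13631 genes, and DESeq2 called 0 members and 4 genes. All 9 had overlapping groups, where 1.43% of genes lay higher and 5.88% lower without overlap.

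The pairs differed. Ngp had 121, 3173 and 3312 CPM in f-KO, against 108, 261 and 1659 in WT (1.80 ± 1.31, edgeR adjusted p = 0.999; blocked 1.62 ± 0.91, 0.533). Ltf had 49.9, 783 and 1096 CPM in f-KO, against 48.6, 97.3 and 451 in WT (1.80 ± 1.16, edgeR adjusted p = 0.999; blocked 1.53 ± 0.75, 0.499). Mmp9 had 6.56, 29.6 and 24.6 CPM in f-KO, against 4.04, 9.04 and 6.11 in WT (1.76 ± 0.56, edgeR adjusted p = 0.999; blocked 1.58 ± 0.29, 0.212). Both libraries numbered 1 lay together at the low end for Ngp and Ltf. Over the 9 members the KO over WT ratio in pair 1 was 0.884 to 1.62, with 6 above 1, against 3.28 to 12.2 in pair 2 and 1.88 to 4.02 in pair 3, with 9 above 1 in each. Without both libraries numbered 1 the block called 2 members, Mmp8 (1.68 ± 0.13, edgeR adjusted p = 0.0356) and Mmp9 (1.98 ± 0.20, 0.0494), among 236 genes.

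Mmp8 did not follow the levels of the rest in this table, with 213, 150 and 134 CPM in f-KO, against 229, 45.4 and 50.8 in WT. It was highest in the libraries numbered 1, where Ngp, Camp and Ltf were lowest. The KO over WT ratio of Mmp8 was 0.931, 3.30 and 2.63 in pairs 1, 2 and 3, so in pairs 2 and 3 Mmp8 was higher in f-KO like the others. Its correlation with the mean z-score of the other 8 members over the 6 libraries was -0.174, whereas the other 8 ranged from 0.808 to 0.980, all of log2(CPM + 1) over the same libraries. No list member passed in edgeR in either fit of this table (0 of 7 primary granule genes, 0 of 36 other late granule genes and 0 of 14 transcription factors), with medians of 1.36, 1.46 and 0.30 without the block. Mature neutrophil markers summed to 905, 8101 and 10062 CPM in f-KO, against 832, 757 and 5139 in WT, so they too were close in pair 1. HSC markers summed to 1092, 1428 and 992 CPM in f-KO, against 1251, 2500 and 1750.5 in WT, with 0 of 11 called in edgeR, a median log2 change of -0.83 and all 11 changes negative. Their part in the members' values was not tested.

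**Figure D4:**
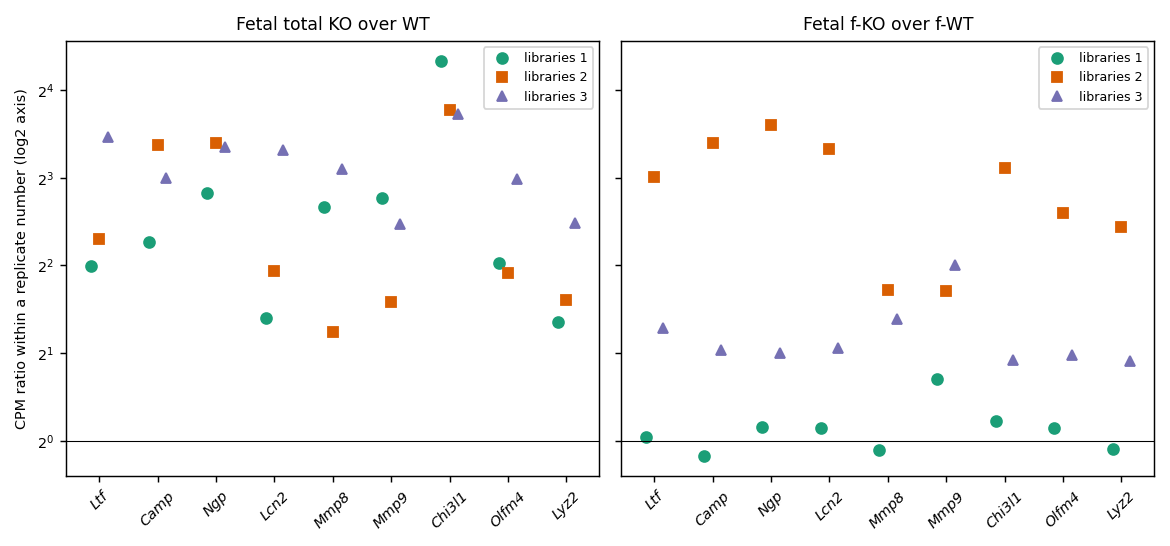
KO over WT ratio of CPM within each replicate number of the 2 fetal tables, 1 point per gene on a log axis, with a line at 1. All 9 genes are above 1 in every pair of the total KO and in pairs 2 and 3 of the f-KO, and 6 of 9 in pair 1 of the f-KO.

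Adult bone marrow HSCs labelled KO did not differ from wild types by the test. Olfm4 was removed by the low-count filter, and 0 of the 8 members tested passed (edgeR adjusted p from 0.534 to 0.887), as for all genes (0% called). At an unadjusted p under 0.05 it was 2 members, Mmp8 and Mmp9, and 1141 of 13495 genes, and DESeq2 called 0 members and 86 genes. Changes ran from 0.10 ± 0.18 for Lyz2 to 5.12 ± 1.83 for Mmp9 with a median of 2.01, and the groups overlapped for every member, where 3.07% of genes lay higher and 2.76% lower without overlap. Camp had 0.382, 11.2, 10.8 and 108 CPM in libraries labelled KO, against 1.06, 3.85, 41.0 and 1.61 in WT. Ngp had 1.18, 47.2, 65.6 and 356 CPM in libraries labelled KO, against 2.79, 16.5, 91.6 and 5.50 in WT. In both groups 1 library was far above the others, replicate 4 of those labelled KO and replicate 3 of WT. Mmp8 had 0.306, 0.0359, 23.3 and 47.4 CPM in libraries labelled KO, against 0.433, 1.60, 1.83 and 0 in WT, so that 2 libraries of the first group carried it. Without KO replicate 4 the sign turned for Camp (-0.67), Chi3l1 (-1.13) and Lyz2 (-0.08), and Ngp was at 0.38.

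Lyz2 behaved differently from the rest in these cells. It had 387, 392, 480 and 644 CPM in libraries labelled KO, against 395, 454, 441 and 485 in WT, a range of 1.67-fold between the lowest and highest of 8 libraries. Over the same libraries Ngp ranged 300.5-fold, Ltf 292-fold, Camp 284-fold and Lcn2 173-fold. Lyz2 alone made up 45.1 to 99.1% of the members' summed CPM in libraries labelled KO and 70.4 to 98.5% in WT, against 20.2 to 51.8% in the f-KO table. Lyz2 is also expressed outside neutrophils, in monocytes and macrophages, whose markers (9 of 10 in the table) summed to 34.6 to 64.1 CPM in libraries labelled KO and 12.5 to 41.4 in WT, with up to 2 and 3 at 0. Mature neutrophil markers summed to 237 to 931 CPM in libraries labelled KO and 228 to 374 in WT. None of the lists had a gene called in bone marrow in edgeR (0 of 7 primary granule, 0 of 26 other late granule and 0 of 14 transcription factor genes).

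Whether the HSC changes themselves differ was asked with interaction terms, fitted to all 20 HSC libraries over the 16214 genes tested. The f-KO change minus the total KO change was negative for all 9 members, from -2.06 to -0.36, and none passed (edgeR adjusted p = 1.00 for each, with 0% of genes called). No member had an unadjusted p under 0.05 in edgeR there, against 210 genes, and DESeq2 called 0 members and 0 genes. The bone marrow change minus the total KO change ran from -3.24 to 3.02, with 0 of 9 called, 0.0123% of genes called and 0 members by DESeq2. At an unadjusted p under 0.05 in edgeR it was 1 member, against 1184 of 16214 genes. For bone marrow minus f-KO the range was -1.18 to 3.52, with 0 called by edgeR or DESeq2 and 0.00617% of genes called. At an unadjusted p under 0.05 in edgeR it was 0 members, against 1228 genes. The larger fold changes of the total KO are therefore not shown to differ from those of the f-KO, in a design with 3 libraries a group and SEs of 0.90 to 2.49 on that difference.

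Genes outside the list were ranked by how closely they followed the members across libraries. In leukaemia the genes whose log2(CPM + 1) was most like the mean z-score of the 9 members over 12 libraries were Fpr2 and S100a8 (Pearson r = 0.977 for both), S100a9 (0.970), Arhgef12 (0.964) and Samd9l (0.963). In bone marrow, where the mean was of the 8 members tested (without Olfm4), they were S100a9 (0.955), Retnlg (0.950), Cd177 (0.949), Trem3 (0.946) and S100a8 (0.938) over 8 libraries. Over the 6 libraries of a fetal table they were Lmo4 (0.990), Lyz1, Cyp4f18, Vapa and Slco1c1 for the total KO, and Ppp1r42, Pram1 and Echs1 (0.998 each), Gatm and Rac2 for the f-KO. With so few libraries, values this close to 1 do not single out genes, and libraries of one group share their treatment. Single members correlated with the mean of the others at 0.679 (Mmp8) to 0.874 (Ltf) in leukaemia and 0.781 (Lyz2) to 0.964 (Lcn2) in bone marrow.

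**Figure D5:**
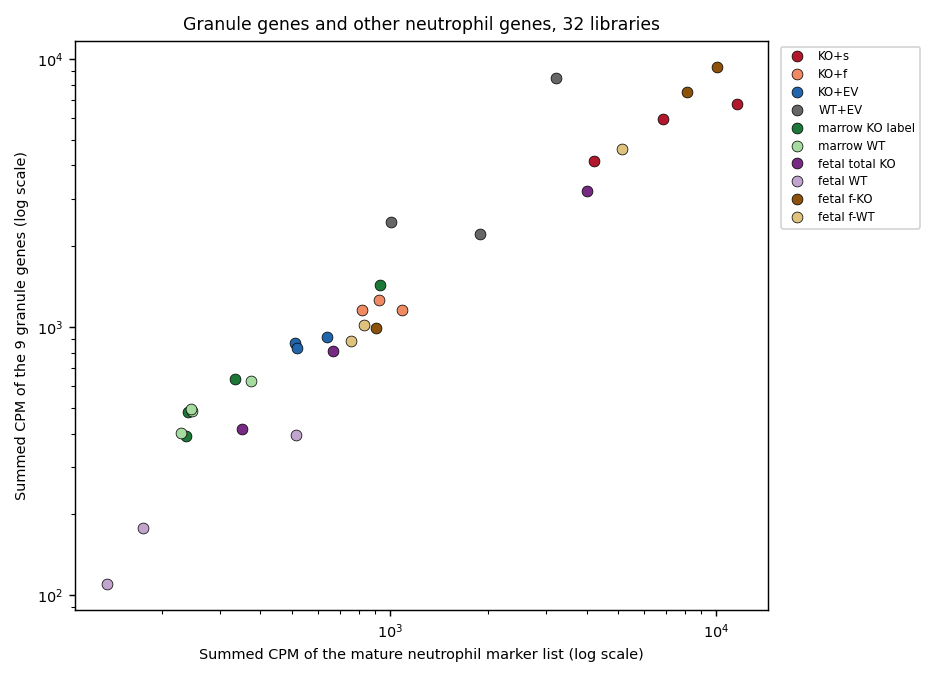
Summed CPM of the 9 genes against summed CPM of mature neutrophil markers that are not members, both on log axes, 1 point per library for all 32 libraries with colours for groups. The fetal libraries run from 110 to 9352 CPM of the 9 genes, KO+EV libraries sit at 832 to 916 and KO+s libraries at 4157 to 6763.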

How the data were processed

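RNA had been extracted with Trizol and made into poly-A TruSeq libraries, with a SMARTer low-input amplification first for the HSC samples, per the labels. The deposited files hold whole-number read counts per gene, unnormalised, and the submitters' processing notes name bcl2fastq 2.17, TopHat, DESeq and build mm9. The counting tool, annotation and strand setting are not given in the sources used here. All columns matched a sample by name (0 unmatched). The 92 spike-in rows of the bone marrow and f-KO tables (0 and 1 counts) were dropped, and no 2 libraries agreed within sampling noise (lowest chi-square per degree of freedom 11.6).

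CPM is a gene's count over its library total. Low genes were removed with filterByExpr and libraries scaled by TMM, and edgeR 4.0.16 (R 4.3.3) gave two-sided quasi-likelihood tests with robust dispersions, adjusted by Benjamini-Hochberg over all genes tested and called at 0.05. Each SE of an edgeR log2 change was back-calculated, as the size of the change over the square root of the test's F statistic. The 12 leukaemia libraries were fitted together, each HSC table alone, and all 20 HSC libraries for interactions. Alternatives were DESeq2 1.42.0, DESeq2-style size factors, no filter, a replicate block, only the groups compared, and leaving out libraries. Scripts were tested on simulated data. Tables and figures used Python 3.11.15, numpy 2.4.6, pandas 2.3.3 and matplotlib 3.10.9.

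The labels give replicate numbers without saying what they mark. Deviations of same-number libraries from their group means correlated at 0.654, 0.471 and 0.794 in the total KO table and 0.715, 0.463 and 0.746 in the f-KO table. Libraries of different numbers ran from -0.723 to 0.536 and from -0.745 to 0.307. In the total KO table WT 2 with KO 1 (0.536) and WT 1 with KO 2 (0.533) exceeded the 0.471 of pair 2. Numbers 1 and 2 were therefore not separated there. Blocked values stand beside fetal results whose call they change. The members and lists were chosen with earlier results of these data known. From each list up to 3 passing genes with the smallest p were named, transcription factors whatever their test, and the 5 genes most like the members in each table. A comparison of protein sequences was planned and is not reported here, nor is a promoter window for Mmp9.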

Additional observations from a re-analysis of the deposited data

Results flagged for a closer look

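In bone marrow, groups of 4 libraries were checked for a library whose gap to its nearest neighbour took up most of the group's range (Dixon's test), and 9 of 18 gene and group combinations had one. The test's nominal rate of 1 in 20 assumes normally distributed values, which was not checked for these CPM. Replicate 4 of the libraries labelled KO was far above the others for Camp (108 CPM), Chi3l1 (4.25), Lcn2 (74.8), Ltf (167) and Olfm4 (1.15). In WT it was replicate 3 for Camp (41.0 CPM), Ltf (29.0) and Ngp (91.6). Olfm4 in WT replicate 1 (0.118 CPM) rests on 3 reads. In both groups the other libraries had 0 Olfm4 reads, so any reads in a single library are flagged. The genes are not independent of each other, since the same library is high for several. These libraries also had the highest mature neutrophil sums of their groups, 931 CPM in replicate 4 labelled KO and 374 CPM in WT replicate 3, and the part of those cells in the members' values was not tested.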

How the results depend on the processing

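In leukaemia and bone marrow same-number libraries deviated together little (correlations -0.226 to 0.312 and -0.0509 to 0.239), and what the numbers mark is not known. There the replicate block gained Camp in KO+EV against WT+EV (edgeR adjusted p = 0.0413) and KO+s against KO+f (0.0217), lost Lcn2 in both (0.0886 and 0.0634), and turned the sign of Ltf in KO+f against KO+EV (0.066). It also turned the bone marrow minus f-KO differences of Lcn2 (-2.3e-05) and Ngp (-0.32), and called 0 genes in both bone marrow interactions. For the total KO it called 5 members and 176 genes, 3 and 138 without both libraries numbered 1, 3 and 51 without those numbered 2, and 8 and 320 without those numbered 3. The last of these fits rests on numbers 1 and 2, which were not separated. In the f-KO without the libraries numbered 1 the block called 2 members and 236 genes. No other call of a member in the main comparisons moved with the block.

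DESeq2 called 910 genes for KO+EV against WT+EV, 2225 for KO+f against KO+EV, 1381 for KO+s against KO+f, 86 in bone marrow, 70 in the total KO (2 members), 4 in the f-KO, and 28 and 24 for bone marrow minus total KO and minus f-KO. With no low-count filter more genes were tested (20131 in leukaemia). There 1 member passed among 209 genes for KO+EV against WT+EV, and 2 members among 393 genes for KO+s against KO+f. Fits to only the groups compared called 0 members and 1 gene for KO+EV against WT+EV and 392 genes for KO+f against KO+EV. The cause was not tested.

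Leaving out 1 library gave 0 to 4 members and 26 to 425 genes for KO+EV against WT+EV, 2 to 3 and 559 to 1533 for KO+f against KO+EV, 7 to 9 and 2732 to 3821 for KO+s against KO+EV, and 2 to 7 and 37 to 388 for KO+s against KO+f. It gave 0 to 3 genes in bone marrow, 0 to 4 and 0 to 2 for its differences from the total KO and f-KO, and 0 members in every HSC comparison.

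Leaving out 1 library also turned the sign of values that had not passed. In KO+f against KO+EV the changes ran from -1.15 to 0.33 for Camp and -0.42 to 0.28 for Ltf, in KO+EV against WT+EV from -0.18 to 0.18 for Lyz2, and in bone marrow from -0.67 to 3.88 for Camp, -1.13 to 1.82 for Chi3l1 and -0.083 to 0.18 for Lyz2. The difference of bone marrow from the f-KO ran from -2.47 to 2.05 for Camp, -2.92 to 0.0070 for Chi3l1, -1.52 to 2.11 for Lcn2, -1.11 to 2.69 for Ltf, -1.66 to 2.01 for Ngp and -4.24 to 4.58 for Olfm4. Its difference from the total KO ran from -3.94 to 0.83 for Camp, -2.70 to 0.93 for Lcn2, -2.31 to 1.49 for Ltf, -2.97 to 0.43 for Ngp and -5.42 to 3.39 for Olfm4. The f-KO minus total KO difference ran from -3.57 to 1.20 for Camp, -1.79 to 0.54 for Lcn2, -1.88 to 0.24 for Ltf, -1.66 to 0.0015 for Lyz2, -0.97 to 0.12 for Mmp9, -2.97 to 0.29 for Ngp and -2.16 to 0.51 for Olfm4. Signs of the remaining members held in these comparisons. Members with few counts, such as Olfm4 in bone marrow (28 counts in libraries labelled KO and 3 in WT), limit what depth can show.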

Other observations

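Markers of eosinophils, granulocytes with a different granule content, were measured with the members. Epx, Prg2, Prg3 and Ear6 summed to 420, 595 and 1146 CPM in f-KO fetal HSCs, against 443, 24.3 and 809 in WT. The WT library numbered 2 was far below the other 5. In the total KO table the sums were 1.53, 16.96 and 79.0 CPM in total KO, against 0.150, 0.289 and 2.29 in WT, so the lowest total KO library lay below the highest WT library. Within each replicate number the total KO library was the higher. Prg2, the major basic protein gene, made up most of the sums in the f-KO table, at 628 ± 341 CPM in f-KO and 379 ± 351 in its WT. In the total KO table Prg2, the only 1 of the 4 tested, was called higher with the block (log2 change 5.4) and not without it. In bone marrow the sums were 0.489 to 4.43 CPM in libraries labelled KO and 0.579 to 88.2 in WT, and in leukaemia 1.67 to 31.2 over the 12 libraries. Monocyte and macrophage markers summed to 621 to 1620 CPM in f-KO and 112 to 705 in WT. Their part in the members' values was not tested.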
